A study of Mus musculus with 15 samples.

Results

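The killer cell lectin-like receptors described here are 4 genes, Klrg1, Klrk1, Klrd1 and Klrc1, taken by symbol out of the 55536 GENCODE M21 genes of the count table, in which 30 genes carry a Klr symbol. They were measured by poly(A) RNA sequencing of sorted OT-I CD8+ T cells, whose transgenic T cell receptor recognises an ovalbumin peptide, after transfer into C57BL/6J mice. The recipients were given the antigen alone (Ag, 5 libraries) or the antigen with agonist antibodies to the costimulatory receptors OX40 and 41BB (Ag+Costim, 5 libraries), and the labels give day 4. Both groups therefore share the OT-I transgene, the C57BL/6J background, the transfer and the antigen, and they differ in the pair of antibodies. Naive OT-I libraries are also labelled in the series and were not analysed here. The comparison asks whether costimulation changed the levels or the transcripts of receptors that activated CD8+ T cells share with natural killer (NK) cells.

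These receptors are C-type lectin-like membrane proteins that NK cells use to read the surface of other cells, and that CD8+ T cells take up with effector differentiation. Klrd1 encodes CD94, which pairs with NKG2A, the product of Klrc1, as an inhibitory receptor for the MHC class I molecule Qa-1b (H2-T23), or with the activating NKG2C of Klrc2. Klrk1 encodes NKG2D, an activating receptor for stress-induced ligands that signals through the adaptor DAP10 (Hcst). Klrg1 encodes an inhibitory receptor for cadherins that marks short-lived effector T cells.

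All 4 genes lie on chromosome 6 (mm10). Klrd1 (ENSMUSG00000030165.16) lies on the forward strand at chr6:129591782-129598775, and Klrk1 (ENSMUSG00000030149.15) and Klrc1 (ENSMUSG00000030167.15) lie on the reverse strand at chr6:129610323-129623864 and chr6:129666015-129678973. Klrg1 (ENSMUSG00000030114.8) lies apart from these, at chr6:122270596-122282882 on the reverse strand. No annotated gene overlapped any of them. Klrc1 has close paralogs: its coding sequence was 83.1% identical to that of Klrc2 and 85.5% identical to that of Klrc3, and 300 of 1885 windows of 100 bases in Klrc1-201 occurred unchanged in Klrc2, so how the authors' counting split reads between Klrc1 and Klrc2 is uncertain. No such window was shared with Klrc3.

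The sequences at which the annotated transcripts of these genes part ways are given here because the transcript and splicing values below turn on them. The annotated coding frame of Klrk1 opens at either of 2 start codons (capitals), which lie 39 bases or 13 codons apart. The long frame, of Klrk1-201, takes the upstream start, and Klrk1-202 and Klrk1-205 the downstream start. The 84 bases are spliced together from within chr6:129621196-129622573, reverse strand:
Klrk1 coding start: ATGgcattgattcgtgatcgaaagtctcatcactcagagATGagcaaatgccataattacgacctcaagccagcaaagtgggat
Klrk1-205 further carries 18 bases at an alternative acceptor (chr6:129616333-129616350, reverse strand), so that the coding sequences of Klrk1-201, Klrk1-202 and Klrk1-205 are 696, 657 and 675 bases long:
Klrk1 extra acceptor bases: ttataattatcttgacag
Klrc1 has 2 cassette exons, which may be spliced in or skipped, of 102 bases (chr6:129678296-129678397, reverse strand) and 51 bases (chr6:129677765-129677815, reverse strand), both within the coding frame and both a whole number of codons:
Klrc1 exon of 102 bases: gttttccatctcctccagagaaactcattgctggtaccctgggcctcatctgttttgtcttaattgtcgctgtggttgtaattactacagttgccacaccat
Klrc1 exon of 51 bases: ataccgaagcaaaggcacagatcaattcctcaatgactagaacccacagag
Klrd1-203 differs from the leading transcript Klrd1-202 in a coding exon of 57 bases (chr6:129596665-129596721, forward strand):
Klrd1 exon of 57 bases: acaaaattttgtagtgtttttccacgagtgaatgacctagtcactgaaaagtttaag

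The total of estimated counts per library ran from 59.6 M (1 M is 1000000) to 449 M in Ag and from 332 M to 639 M in Ag+Costim. These totals derive from read coverage and are not numbers of reads. Ag replicate 3 had the lowest total, with 51778 genes above 0 against 20714 to 48058 in the other Ag libraries and 28727 to 30340 in Ag+Costim. All 6 CD8 T cell markers (such as Cd8a and Cd3e) were measured in every library, with summed levels of 3122 to 6140 CPM (counts per 1000000 counts of a library, scaled here by TMM factors) in Ag and 4132 to 5039 CPM in Ag+Costim. Summed markers of other cells were lower in every library, with B cell markers, mostly Ighm, at 643 to 1179 CPM in Ag and 515 to 764 CPM in Ag+Costim. Myeloid markers reached 38.8 to 99.5 and 69.5 to 149 CPM, gamma delta and NKT markers 78.5 to 116 and 77.7 to 109 CPM, and CD4 T cell markers 3.74 to 26.4 and 3.16 to 8.20 CPM. The 8 NK cell markers together reached 23.4 to 88.1 CPM in Ag and 15.5 to 37.5 CPM in Ag+Costim, with the highest value in Ag replicate 3, where the 5 erythroid markers also reached 856 CPM against 2.79 to 98.5 CPM in the other 9 libraries. None of these marker genes was at 0 in every library. The 10 cell cycle genes (Mki67, Top2a and others) summed to 736 CPM in Ag replicate 1 and 765 CPM in Ag replicate 4, against 3751 to 6924 CPM in the other Ag libraries and 6012 to 7603 CPM in Ag+Costim. The part of these differences in the receptor values was not tested. In bulk RNA, fewer cells that express a receptor and less of its RNA per cell cannot be told apart.

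Klrk1, the activating receptor gene, had the highest mean CPM of the 4 members. Its level was 86.5, 450, 274, 121 and 440 CPM in Ag replicates 1 to 5. In Ag+Costim replicates 1 to 5 it was 415, 451, 410, 358 and 381 CPM. Ag replicates 1, 3 and 4 lay under every Ag+Costim library, Ag replicates 2 and 5 lay inside the Ag+Costim range, and the groups overlapped. The means were 274 ± 171 CPM (SD, n = 5) in Ag and 403 ± 35.6 CPM (SD, n = 5) in Ag+Costim, a log2 fold change of 0.56 ± 0.41 (SE) that did not pass edgeR's quasi-likelihood test (BH-adjusted p = 0.41).

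Klrc1, the inhibitory NKG2A gene, was low in the same libraries. It measured 50.2, 395, 245, 86.0 and 409 CPM in Ag replicates 1 to 5. In Ag+Costim it measured 351, 383, 394, 443 and 329 CPM. Again Ag replicates 1, 4 and 3 were the lowest of all 10 libraries, while Ag replicates 2 and 5 lay inside the Ag+Costim range. The log2 fold change was 0.68 ± 0.50 (SE), with means of 237 ± 168 CPM and 380 ± 43.5 CPM (SD, n = 5 each) and an edgeR BH-adjusted p of 0.40.

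Klrd1, which encodes the partner chain CD94, varied least within Ag. Its 5 Ag levels were 107, 230, 139, 115 and 251 CPM. Its 5 Ag+Costim levels were 184, 202, 194, 163 and 167 CPM. Ag libraries stood on either side of all 5 Ag+Costim libraries, with Ag replicates 1, 4 and 3 below them and Ag replicates 2 and 5 above. The log2 fold change was 0.11 ± 0.25 (SE; edgeR BH-adjusted p = 0.79), and its sign turned with the scaling, to -0.078 under total counts and -0.090 under upper-quartile scaling.

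Klrg1, the effector marker, was the rarest and the most variable member. In Ag it measured 0.563, 11.95, 16.1, 0.588 and 32.5 CPM, or 254, 3793, 1144, 190 and 12053 estimated counts. In Ag+Costim it measured 15.4, 22.3, 6.71, 6.39 and 10.6 CPM. The Ag libraries thus held both the highest and the lowest levels, 57.7-fold apart, against 3.49-fold within Ag+Costim. The means were alike, 12.3 ± 13.2 CPM and 12.3 ± 6.69 CPM (SD, n = 5 each), with a log2 fold change of -0.01 ± 0.93 (SE; edgeR BH-adjusted p = 0.997).

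**Figure D1:**
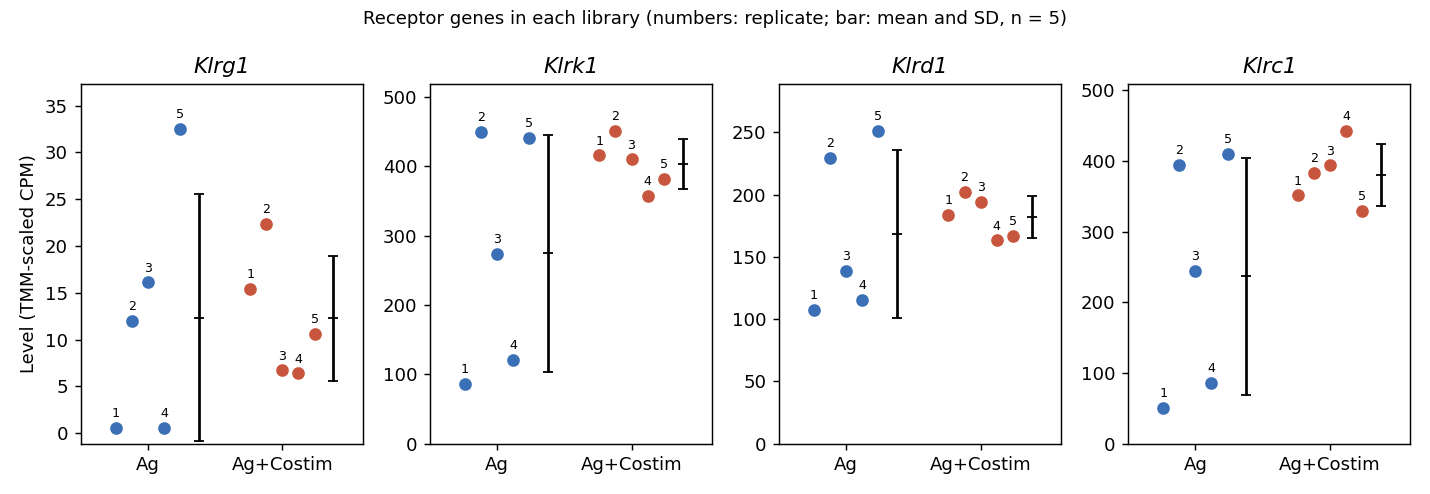
Level of each receptor gene (vertical axis, CPM scaled by TMM factors) in the 5 Ag libraries (blue) and the 5 Ag+Costim libraries (red), with 1 point per library, its replicate number above it, and the mean and SD beside each group. Ag replicates 1 and 4 are the lowest points of Klrk1, Klrc1, Klrd1 and Klrg1, and no gene separates the groups.

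None of the 4 members was called by edgeR, which called 0 of 24262 genes tested (0.0%), although 4501 of these genes had an unadjusted p under 0.05. None of the members separated the groups, whereas 4.48% of the genes tested lay higher in every Ag+Costim library than in any Ag library and 1.13% lay lower. DESeq2 called 8046 of 36117 genes, and none of the 4 members was among them. Limma's voom test with a quality weight per library, by contrast, called all 4 members higher in Ag+Costim, where it called 25.8% of all genes tested higher and 26.4% lower. Its log2 fold changes were 4.00 ± 0.92 for Klrg1, 2.18 ± 0.27 for Klrc1, 1.75 ± 0.22 for Klrk1 and 0.63 ± 0.13 for Klrd1 (SE; BH-adjusted p from 4.6e-05 to 0.0038). In that fit Ag replicates 5 and 2 had the lowest weights of all libraries, 0.0656 and 0.0986, against 0.508 to 2.00 for the other Ag libraries and 1.70 to 3.35 for Ag+Costim.

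The members' values also changed with the Ag libraries in the fit. With Ag replicates 2 and 5 left out, edgeR called 3 of the 4 members higher, Klrc1 (log2 fold change 1.73), Klrk1 (1.47) and Klrd1 (0.72), where 17.9% of the 33480 genes tested in that fit were called higher, and Klrg1 was not called (1.29, BH-adjusted p = 0.31). With Ag replicates 1 and 4 left out, the pair with the lowest cell cycle level, a setting chosen after the values were seen, edgeR called 0 genes, and the members were at 0.13 (Klrc1), 0.07 (Klrk1), -0.17 (Klrd1) and -0.71 (Klrg1).

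**Figure D2:**
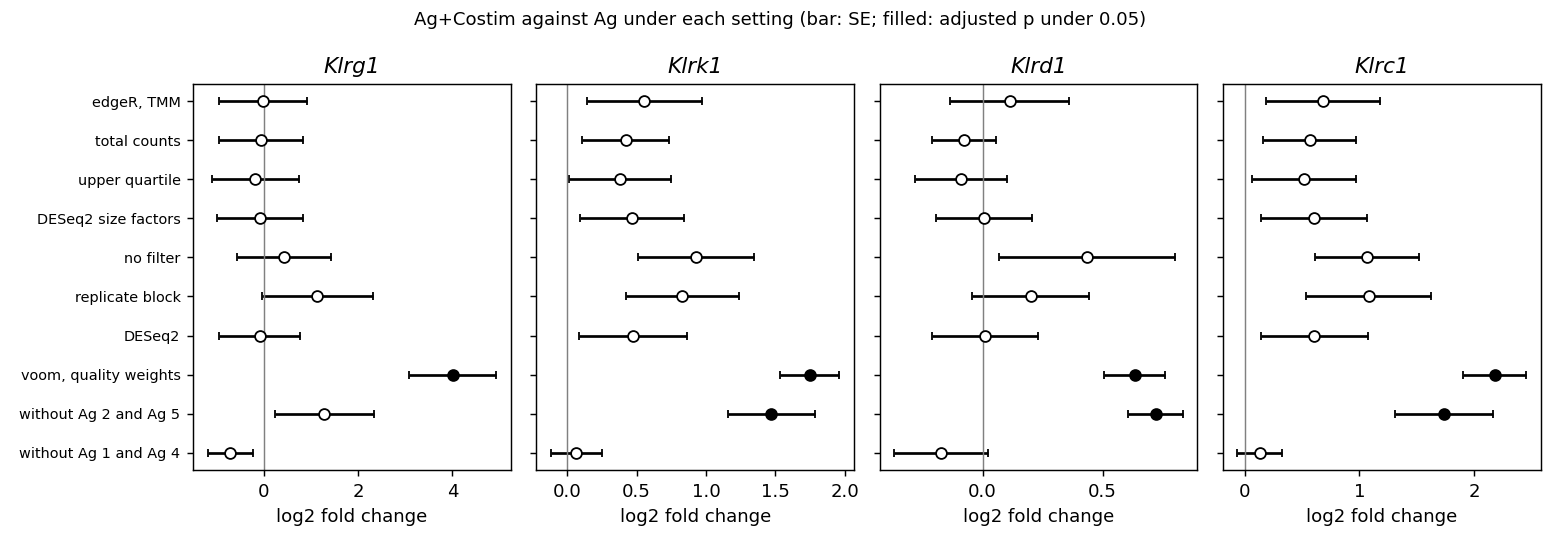
Log2 fold change of each receptor gene, Ag+Costim against Ag (horizontal axis, with SE bars), under 10 settings of the test (rows). Filled points, with an adjusted p under 0.05, occur in 2 rows, voom with quality weights (4 genes) and edgeR without Ag replicates 2 and 5 (3 genes).

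The spread of the members was wider in Ag than in Ag+Costim, as it was for most genes. The SD of log2(CPM + 1) in Ag was 8.49 times that in Ag+Costim for Klrk1, 8.28 times for Klrc1, 4.23 times for Klrd1 and 2.88 times for Klrg1. Over 8626 genes tested that averaged at least 10 CPM, the median of this quotient was 3.92, and 96.5% of them were above 1. Klrk1 and Klrc1 lay above 85.1% and 84.1% of these genes, and Klrd1 and Klrg1 above 54.5% and 34.6%.

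Levels were compared between genes on a length-scaled scale (TPM, the count per transcript length, scaled to a common total). In Ag the means were 314 ± 47.7 TPM for Klrd1, 256 ± 125 for Klrk1, 188 ± 107 for Klrc1 and 12.6 ± 12.1 for Klrg1 (SD, n = 5). In Ag+Costim the means were 381 ± 38.4 TPM for Klrk1, 324 ± 29.9 for Klrd1, 306 ± 31.7 for Klrc1 and 13.3 ± 7.35 for Klrg1 (SD, n = 5). Klrd1, Klrk1 and Klrc1 overlapped one another in both groups, and Klrg1 was the lowest of the 4 in all 10 libraries. Klrd1 was first in 4 of 5 Ag libraries, and Klrk1 was first in 4 of 5 Ag+Costim libraries, where replicate 4 was led by Klrc1.

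A ratio of receptor chain to partner within a library does not depend on how libraries are scaled. The Klrc1 to Klrd1 ratio, the NKG2A gene over its CD94 partner, was 0.208, 0.780, 0.798, 0.337 and 0.744 in Ag replicates 1 to 5, on the length-scaled levels. In Ag+Costim replicates 1 to 5 it was 0.866, 0.865, 0.926, 1.24 and 0.864. Every Ag+Costim library was above every Ag library. The mean log2 difference was 0.90 (two-sided exact permutation test over libraries, p = 0.0079, the smallest that 5 against 5 allows, BH-adjusted p = 0.016 over the 2 ratios). Of the 8625 other genes that averaged at least 10 CPM, 7.92% had a ratio to Klrd1 that likewise lay higher in all Ag+Costim libraries. Without Ag replicates 1 and 4 the log2 difference was 0.29, with the same order of groups and an exact permutation p of 0.036 (BH-adjusted 0.071), which is the smallest that 3 against 5 allows.

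The Klrk1 to Hcst ratio compares the NKG2D gene with the gene of DAP10, an adaptor of this receptor. It was 0.186, 1.44, 1.22, 0.233 and 1.02 in Ag replicates 1 to 5 (length-scaled). In Ag+Costim it was 1.44, 1.73, 1.38, 1.96 and 1.73. Ag replicate 2 reached into the Ag+Costim range, so the groups overlapped in this library, and the other 4 Ag libraries lay under it. The mean log2 difference was 1.44 (two-sided exact permutation test, p = 0.016, BH-adjusted p = 0.016). How many other genes had a higher ratio to Hcst in Ag+Costim was not counted. The result is therefore not shown to be particular to Klrk1. Without Ag replicates 1 and 4 it was 0.42 and missed the threshold (exact permutation p = 0.071). Hcst itself measured 119, 85.4, 57.3, 129 and 118 CPM in Ag and 77.8, 71.7, 80.4, 49.95 and 58.7 CPM in Ag+Costim, highest in Ag replicates 4 and 1, where Klrk1 was lowest. Its log2 fold change was -0.59 (edgeR unadjusted p = 0.028, BH-adjusted p = 0.26), beside a median of 0.24 over genes tested that averaged at least 10 CPM. DESeq2 gave Hcst an adjusted p of 0.032.

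**Figure D3:**
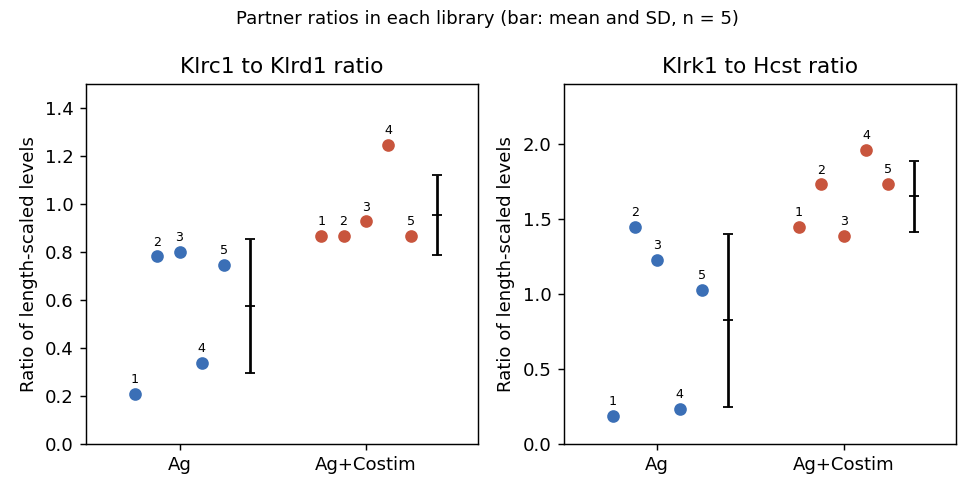
Length-scaled Klrc1 to Klrd1 ratio (left) and Klrk1 to Hcst ratio (right) in each library, with replicate numbers, mean and SD (n = 5 per group). The Ag+Costim libraries lie between 0.864 and 1.24 on the left, above all Ag libraries, and on the right Ag replicate 2, at 1.44, is within their range of 1.38 to 1.96.

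Among the other Klr genes, Klrc2 and Klre1 were lowest in the same libraries as the members, and most were nearly silent. Of the 30 Klr genes, 11 averaged at least 1 CPM and 26 could be tested. Klrc2, the activating NKG2C gene next to Klrc1, measured 8.85, 39.0, 24.7, 11.9 and 41.2 CPM in Ag and 40.1, 41.6, 24.5, 46.3 and 32.8 CPM in Ag+Costim, with the lowest values again in Ag replicates 1 and 4. Its log2 fold change was 0.56 ± 0.41 (SE; edgeR BH-adjusted p = 0.40). Klre1 was also lowest in these libraries, at 3.22 and 2.62 CPM, against 11.8 to 18.5 CPM in the other Ag libraries and 5.55 to 11.8 CPM in Ag+Costim (log2 fold change -0.17, edgeR BH-adjusted p = 0.84). Klrb1f ran from 1.07 to 7.47 CPM in Ag and from 2.14 to 3.32 CPM in Ag+Costim, and Klri2 from 0.482 to 2.76 CPM and from 1.10 to 2.52 CPM.

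Klre1 is also on the list of NK cell markers. Of the others, Klrb1c, the NK1.1 gene, measured 3.72, 0.952, 10.4, 5.57 and 1.11 CPM in Ag and 0.473 to 1.28 CPM in Ag+Costim (log2 fold change -2.30 ± 0.67, edgeR BH-adjusted p = 0.20). Ag replicate 3 was the highest, as it was for the summed NK and erythroid markers. Ncr1, which encodes the NK receptor NKp46, measured 1.72, 1.14, 6.04, 1.42 and 5.66 CPM in Ag and between 0 and 0.885 CPM in Ag+Costim. At these low levels, Ncr1 alone of the 8 NK markers separated the groups (log2 fold change -3.24, edgeR BH-adjusted p = 0.25). Of all genes tested, 1.13% likewise lay lower in every Ag+Costim library than in any Ag library. The 14 Ly49 (Klra) genes and pseudogenes, whose products include inhibitory and activating MHC class I receptors of mouse NK cells, together measured 19.6, 5.03, 25.4, 11.4 and 4.93 CPM in Ag and 1.77 to 4.23 CPM in Ag+Costim. This sum, made after the values were seen and not tested, was lower in every Ag+Costim library than in any Ag library, at levels of a few CPM. Among these, Klra13-ps reached 7.09 CPM and Klra7 3.86 CPM in Ag replicate 1, against at most 0.470 and 1.34 CPM in Ag+Costim. The 19 Klr genes with a mean under 1 CPM had means of 0.870 CPM or less, and 16 of them were at 0 in at least 1 library.

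EdgeR called 0 of the 26 Klr genes tested, with 5 at an unadjusted p under 0.05. Of the 26, 7 had a positive and 19 a negative log2 fold change, with a median of -1.68 beside -0.32 over all genes tested, and under total-count or upper-quartile scaling the split was 4 to 22. Most Klr genes are scarce, and the median over all genes depended on level. It was -2.14 over 54224 genes with no filter, which adds scarcer genes, and 0.24 over genes tested that averaged at least 10 CPM. The Klr median is therefore not shown to be particular to this family. No Klr gene separated the groups. DESeq2 called 7 Klr genes, all lower (Klra6, Klra9, Klra10, Klra13-ps, Klrb1a, Klrb1c and Klrg2), where it called 19.7% of genes lower. Voom with quality weights, which called 25.8% of all genes higher and 26.4% lower, called 8 Klr genes higher (the 4 members, Klrc2, Klrc3, Klre1 and the Ly49 gene Klra2) and 10 lower (Klrb1c, Klrg2 and 8 other Ly49 genes and pseudogenes).

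**Figure D4:**
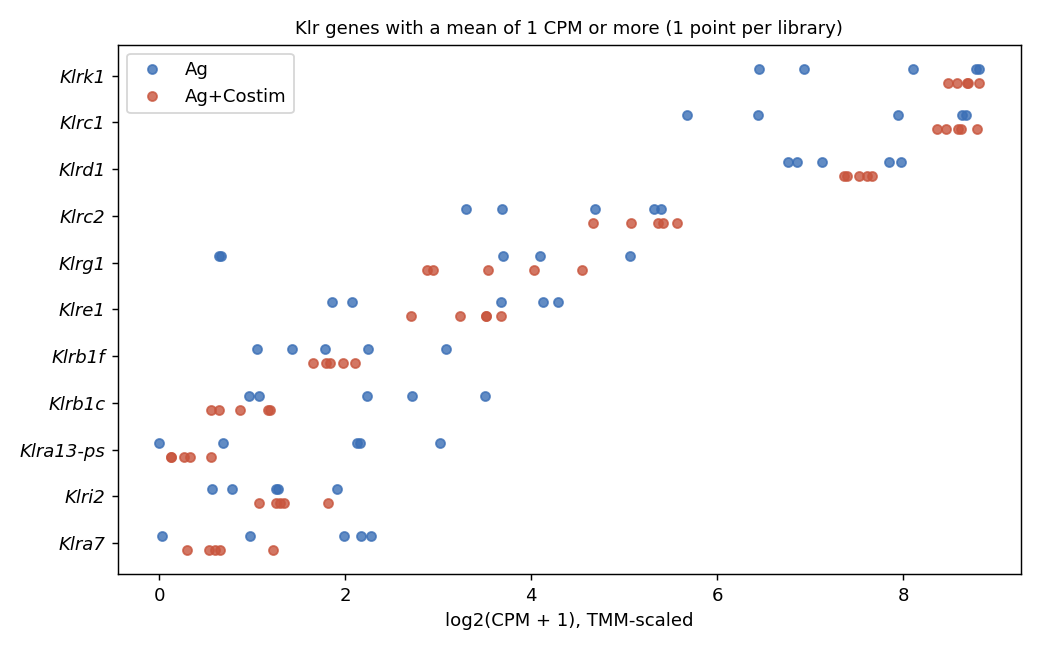
Level on the log2(CPM + 1) scale (horizontal axis) of the 11 Klr genes that averaged at least 1 CPM, ordered by mean, with 1 point per Ag (blue) and Ag+Costim (red) library. Klrk1, Klrc1, Klrd1, Klrc2 and Klrg1 have means over 10 CPM, and every gene overlaps between the groups.

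Genes around these receptors were read from lists of adaptors, signalling genes, ligands, effector and memory genes and transcription factors, and edgeR called none of their members, whether higher or lower. Of the 2 adaptors, both had negative log2 fold changes, with a median of -0.64. Among 6 genes of activating signalling the median was 0.22, and Vav1, a guanine nucleotide exchange factor of receptor signalling, was higher in every Ag+Costim library (269 to 316 CPM) than in any Ag library (194 to 262 CPM, log2 fold change 0.35, edgeR BH-adjusted p = 0.26). Among 3 genes of inhibitory signalling the median was 0.26, and Inpp5d, which encodes the phosphatase SHIP1, likewise did not overlap (103 to 125.9 CPM in Ag, 126.1 to 140.0 CPM in Ag+Costim, log2 fold change 0.26, edgeR BH-adjusted p = 0.27). These are 1 of 6 and 1 of 3 genes, beside the 4.48% of all genes given above.

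Of 14 ligand genes 10 were in the table under these symbols and 7 were tested, with a median log2 fold change of -0.26. H2-T23, which encodes the Qa-1b ligand of CD94 with NKG2A and is named here after its values were seen, measured 503, 386, 275, 541 and 435 CPM in Ag and 306 to 427 CPM in Ag+Costim. It was highest in Ag replicates 4 and 1, the libraries in which Klrc1 was lowest, and its log2 fold change of -0.26 did not pass edgeR's test (BH-adjusted p = 0.41). The list did not share this order. B2m measured 1992, 2516, 1654, 2225 and 3007 CPM in Ag replicates 1 to 5, highest in the Ag libraries in which Klrc1 was highest. The scarce H60b, at most 1.09 CPM, was again highest in Ag replicates 4 and 1. The 8 effector and memory genes had a median of -0.41 and a range from -1.04 to 0.54. The 9 transcription factors had a median of 0.41 and a range from -1.27 to 0.80. The median over all genes tested was -0.32, and over those that averaged at least 10 CPM it was 0.24.

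The genes whose levels followed each member most closely over the 10 libraries were picked by Pearson's r of log2(CPM + 1) among the 8625 other genes at this level. For Klrg1 these were Plac8 (r = 0.975), Gzma (0.966) and Ly6c2 (0.959). For Klrk1 they were Ly6a (0.992), Cdkn2c (0.990) and Hmgb2 (0.990), for Klrc1 Ncald (0.995) and Hmgb2 (0.992), and for Klrd1 Phf11b (0.996), H2afy (0.987) and Dap (0.987). Between members r was highest for Klrk1 with Klrc1 (0.985) and lowest for Klrg1 with Klrd1 (0.829). The points are the same 10 libraries throughout, so these values are a description.

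Transcripts were compared as shares of a gene's estimated counts. Klrg1 has 1 annotated transcript. For Klrk1, Klrk1-205 and Klrk1-201 had nearly equal mean shares over the 10 libraries (40.3 and 40.1%), and Klrk1-205, the marginally higher, was the transcript tested. It took 44.1, 37.1, 42.7, 45.5 and 38.5% in Ag and 38.02, 37.0, 39.7, 39.6 and 40.7% in Ag+Costim. The groups overlapped, and the difference of -2.59 percentage points did not pass the two-sided exact permutation test (p = 0.17, BH-adjusted p = 0.26 over the 3 genes with several transcripts). The long-frame Klrk1-201 was above Klrk1-205 in the other 3 Ag libraries and all 5 Ag+Costim libraries, and below it in Ag replicates 1 and 4. It took 39.1 ± 6.80% in Ag and 41.2 ± 0.925% in Ag+Costim, and Klrk1-202 from 6.19 to 13.7% over all libraries (SD, n = 5 per group). The 3 retained-intron transcripts together took 17.1, 9.11, 7.54, 16.7 and 2.86% in Ag and 6.76 to 10.6% in Ag+Costim, highest in Ag replicates 1 and 4.

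Once each transcript was divided by its length, Klrk1-201 made up 58.6 ± 3.54% of the 3 protein-coding transcripts in Ag and 58.2 ± 2.17% in Ag+Costim (mean ± SD, n = 5 each), a difference of -0.31 percentage points within the spread of libraries (two-sided exact permutation p = 0.87). The deposited splicing table gives the same choice another value. There, PSI, the fraction of transcripts that include a stretch, was 0.956 in Ag and 0.938 in Ag+Costim for the first exon that carries the upstream start codon. The 18 acceptor bases printed above had a PSI of 0.0258 and 0.0244, whereas Klrk1-205, which holds them, took 25.4 ± 5.28% and 21.9 ± 0.705% of the length-scaled protein-coding transcripts (SD, n = 5 each). The counts and the splicing table thus differ on how much Klrk1 RNA carries the short frame and the extra bases, and each gives values that differ little between Ag and Ag+Costim. The source of the discrepancy was not tested.

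For Klrd1, Klrd1-202 took 93.2, 93.9, 94.4, 93.9 and 95.2% in Ag, and 92.2, 93.9, 95.1, 94.6 and 55.7% in Ag+Costim. The last library stood apart. In it Klrd1-203, with the 57-base exon, took 31.7% against at most 0.535% in the other 9 libraries, and Klrd1-205, annotated as subject to nonsense-mediated decay, took 9.94% against 1.28 to 3.37%. The Klrd1-202 difference was -7.79 percentage points (exact permutation p = 0.43) and was -0.13 points without Ag+Costim replicate 5. PSI of the 57-base exon, with libraries combined, was 0.0021 in Ag and 0.0042 in Ag+Costim. The splicing table thus shows almost no inclusion, although the counts give Klrd1-203 31.7% in Ag+Costim replicate 5. The counts and the splicing table differ on this exon, and the source of the discrepancy was not tested.

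For Klrc1, Klrc1-201 took 98.5, 97.8, 98.1, 98.3 and 97.8% in Ag and 97.4, 97.6, 97.9, 97.4 and 97.7% in Ag+Costim. The difference of -0.54 percentage points had a two-sided exact permutation p of 0.024, which did not pass after adjustment (BH-adjusted p = 0.071). Klrc1-204, which lacks the 102-base exon, took 2.91 ± 0.973% of length-scaled levels in Ag and 4.25 ± 0.410% in Ag+Costim (mean ± SD, n = 5 each, exact permutation p = 0.032, BH-adjusted p = 0.25 over 8 such shares chosen after the values were seen). PSI of this exon was 0.761 in Ag and 0.716 in Ag+Costim, and of the 51-base exon 0.754 and 0.764, so the splicing table gives far more skipping of both exons than the 4 annotated transcripts do. In the test of transcript usage across 10442 genes (edgeR's diffSpliceDGE), which called 0.278% of them, none of Klrk1, Klrd1 and Klrc1 was called, with BH-adjusted p of 0.11 for Klrd1 and 1 for the other two.

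**Figure D5:**
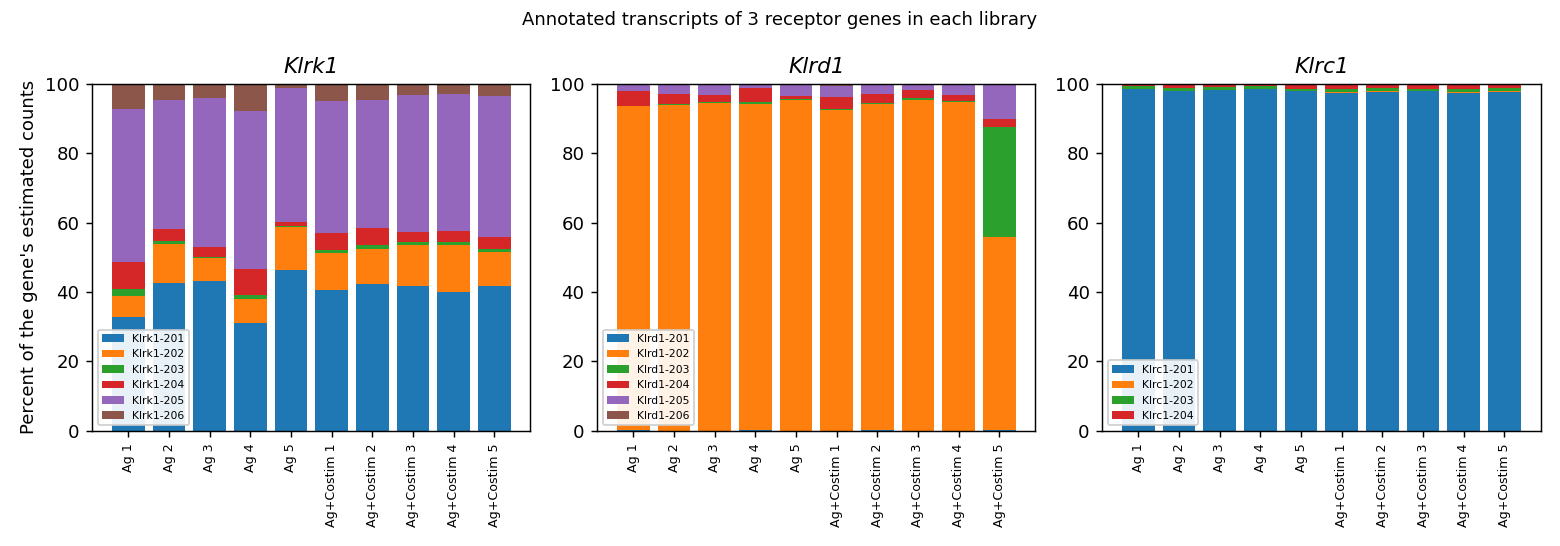
Share of a gene's estimated counts on each annotated transcript (vertical axis, percent; colours, transcripts) in the 10 libraries for Klrk1, Klrd1 and Klrc1. Klrd1-203 takes 31.7% in Ag+Costim replicate 5 and at most 0.535% elsewhere, and Klrc1-201 takes 97.4 to 98.5% in every library.

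The splicing table held 37 events in the 4 genes, each with 1 PSI per group, so none could be tested. The 3 events of Klrg1, all cassette exons, differed by 0.0181 to 0.0251 and had PSI of 0.967 or more. The 13 events of Klrk1 differed by -0.0273 to 0.0282, and the 12 of Klrd1 by -0.0020 to 0.0025. In Klrc1, 2 of 9 events differed by more than 0.05, where 11.9% of all 138940 events did so. Both are tandem transcription starts at the 5' end of the gene. The outermost 45 bases (chr6:129678929-129678973) were at PSI 0.0596 in Ag and 0.0007 with costimulation, while the next 18 bases (chr6:129678911-129678928) stood at 0.915 and 0.988.

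Promoter sequence is given for the genes whose levels moved together most closely and that have an entry in the RefSeq table (GRCm38.p6), Klrk1 and Klrc1, as the 250 bases before the annotated start. The Klrk1 stretch (chr6:129623865-129624114) lies before the upstream, short-frame start rather than before the first exon of Klrk1-201. Capitals mark the matches found:
Klrk1 promoter: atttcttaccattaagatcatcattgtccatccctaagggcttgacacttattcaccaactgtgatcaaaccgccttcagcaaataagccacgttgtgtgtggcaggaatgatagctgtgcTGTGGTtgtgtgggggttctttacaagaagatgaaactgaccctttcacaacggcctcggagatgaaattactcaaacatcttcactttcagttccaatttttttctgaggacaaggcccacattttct
Klrc1 promoter (chr6:129678974-129679223): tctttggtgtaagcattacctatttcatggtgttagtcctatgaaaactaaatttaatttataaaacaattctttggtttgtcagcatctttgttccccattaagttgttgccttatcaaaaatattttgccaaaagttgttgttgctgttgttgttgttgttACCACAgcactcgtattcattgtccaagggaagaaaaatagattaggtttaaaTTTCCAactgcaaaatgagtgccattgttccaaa
Both are on the reverse strand and were searched on both strands. Each held 1 match to the RUNX letters TGTGGT, which 14.0% of 32851 promoters hold. Klrc1 also held 1 match to the NFAT letters TGGAAA, held by 18.6%. Neither held the AP-1 letters TGANTCA (6.75% of promoters), the T-box letters GTGTGA (12.3%) or the TCF letters CTTTGA (13.8%). Klrg1 and Klrd1 had no entry.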

How the data were processed

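The authors aligned poly(A) RNA-seq reads to mm10 with HISAT2 2.1.0 and derived gene and transcript values with StringTie 2.1.0, with DESeq2 1.30.1 also among the tools of the submitters' processing notes. What the authors deposited are estimated counts (expected counts), taken from coverage, rounded and not normalised. The authors' splicing table holds 1 fraction (PSI) per group and event from Whippet, with libraries combined. Its difference and probability columns hold the authors' own comparison and were not used. Libraries were prepared with SMART-Seq v4 and Nextera XT from sorted cells. Counts by strand are not given in the sources used here.

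Members were found by symbol through GENCODE M21, which matched all 55536 gene and 141862 transcript identifiers. Entries without a gene identifier (26248 with a number only, 97 others at 0) were left out. Genes were tested with edgeR 4.0.16 (quasi-likelihood, TMM, filterByExpr; R 4.3.3), p-values adjusted by Benjamini-Hochberg (BH) across every tested gene and called under 0.05. DESeq2 1.42.0 and limma 3.58.1 (voom with quality weights) were alternatives. Transcript usage was tested with diffSpliceDGE on transcripts with at least 10 counts in 5 libraries, with a share change over 0.1. Shares and log2 ratios were compared with two-sided exact permutation tests over the 252 assignments of libraries (SciPy 1.17.1). The edgeR and diffSpliceDGE fits were also run on simulated counts with the same spread in both groups. That setting lacks the wider spread of Ag, so it cannot show how the fits perform on these data. TPM values are counts per transcript length scaled to the same total in each library.

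Groups came from the labels, which give day 4 although the study's methods give less. Whether libraries came from separate animals is not in the labels. The paper's legends describe the columns of its expression data as biological replicates and count mice per group for exon splicing. The p-values measure the spread between libraries. Same-numbered libraries did not deviate together (r from -0.33 to 0.18). The fit was planned with Naive libraries and held 2 groups. Depth is not known in reads, so no counting intervals are given.

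The members and lists were chosen with earlier results of these data known. Named were the 4 members, Klr genes averaging at least 1 CPM, genes of 6 pathway lists that passed the test or did not overlap (up to 4 per list), the 3 genes most like each member (1 of them is not reported here), and member transcripts with a mean share above 10%.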

Additional observations from a re-analysis of the deposited data

Results flagged for a closer look

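In 48 groups of 5 libraries (member and other Klr levels, shares and ratios), 4 had a library separated from the rest by more than Dixon's 95% critical value, and chance gives about 1 in 20 groups. Of these, 3 are shares of 1 gene in 1 library and are not independent: in Ag+Costim replicate 5 Klrd1-202 was at 55.7%, Klrd1-203 at 31.7% and Klrd1-205 at 9.94% of the gene's estimated counts. Its Klrd1 level, 167 CPM, was within the range of the other Ag+Costim libraries. The splicing table, with 1 value per group, gave the added exon of Klrd1-203 a PSI of 0.0042 in Ag+Costim and so does not show this share. The 4th is the Klrc1 to Klrd1 ratio of Ag+Costim replicate 4, at 1.24 the highest of its group. That library had the highest Klrc1 and the lowest Klrd1 level of the group. The causes were not tested.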

How the results depend on the processing

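Against 0 genes called by edgeR, DESeq2 called 8046, voom with quality weights 12670 and edgeR without Ag replicates 2 and 5 16322. The same 3 settings called 7, 18 and 16 Klr genes, against 0. Leaving out each library in turn, other scalings, no filter, and leaving out Ag replicates 1 and 4 gave 0 calls (0 to 0). Scaling moved the median log2 fold change of all genes by -0.16 (DESeq2 size factors), -0.34 (total counts) and -0.27 (upper quartile). Klrg1 turned positive with no filter (0.43), voom (4.00) and without Ag replicates 2 and 5 (1.29), and ran from -0.34 to 0.78 over the left-out libraries. Klrd1 turned negative with total counts (-0.078), the upper quartile (-0.090) and without Ag replicates 1 and 4 (-0.17), ran from -0.0100 to 0.32 over the left-out libraries, and passed under voom (0.63) and without Ag replicates 2 and 5 (0.72). Klrk1 and Klrc1 stayed positive in every setting run (0.33 to 0.82 and 0.42 to 0.98 over the left-out libraries) and passed under voom (1.75 and 2.18) and without Ag replicates 2 and 5 (1.47 and 1.73).

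The replicate block (same-numbered libraries paired) called 0 genes and turned Klrg1 to 1.14, without a call. With the pairing as exact sign flips the ratio differences stayed at 0.90 (Klrc1 to Klrd1) and 1.44 (Klrk1 to Hcst) with p = 0.0625, the smallest exact p that 5 pairs allow. The numbers did not pair the libraries. The ratio differences ran from 0.59 to 1.07 and from 1.02 to 1.76 over the left-out libraries, all past the threshold, with the lowest values without Ag replicate 1. They were 0.29 and 0.42, not past it, without Ag replicates 1 and 4, and 1.301 and 2.12 without Ag replicates 2 and 5. Leading shares ran from -3.70 to -1.62 points (Klrk1), -9.99 to -0.13 (Klrd1) and -0.63 to -0.44 (Klrc1), which passed without Ag+Costim replicate 3 (-0.61, exact BH-adjusted p = 0.048).

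Usage calls, 29 genes, were 144 with limma's diffSplice, 19 with at least 50 counts, 29 with the replicate block, and 6 to 71 over the left-out libraries: 60, 47 and 71 without Ag replicates 2, 4 and 5, and 11, 9, 8, 8 and 6 without Ag+Costim replicates 1 to 5. No member PSI differed by over 0.1 (0 of 37). The Whippet probability was not used, so that alternative was not run, and a fit with only the compared groups is the fit given. The causes were not tested. Depth in reads is not known, so its limits could not be given.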
